A study of Arabidopsis thaliana with 8 samples.

Results

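The PYR/PYL genes encode the receptors of abscisic acid, the hormone that closes stomata and slows growth when water is short. Leaf messenger RNA of 9 of them was followed, PYR1, PYL1, PYL2, PYL4, PYL5, PYL6, PYL7, PYL8 and PYL9. Members were set by gene identifier, with earlier results of these data known, and the family's other genes had almost no reads. All 9 were found among 20690 genes listed in at least 1 library. The plants were Arabidopsis thaliana, all in the Col-0 background and 4 weeks old, and RNA came from rosette leaves 5 to 9. Wild type (WT) and ABI3:MTA plants (mta) gave 4 poly(A) libraries each. MTA is the catalytic subunit of the writer of N6-methyladenosine (m6A), a mark placed inside mRNA. Loss of MTA is lethal to the embryo, and ABI3:MTA plants get past that stage because the ABI3 promoter, active mainly in seeds, drives an MTA transgene in the mutant; how much enzyme their leaves hold was not measured here. The labels do not say whether libraries came from separate plants or from pools, and the p-values reflect no more than how far these libraries spread.

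In the core pathway, abscisic acid enters a pocket of a PYR/PYL protein, and 2 loops called the gate and the latch close over it. The closed receptor binds and blocks a clade A protein phosphatase 2C (PP2C). The blocked phosphatase no longer holds SnRK2 kinases inactive, and the kinases then phosphorylate bZIP transcription factors of the ABF group and ion channels of guard cells. The family is split into 3 subfamilies. Those of subfamily III (PYR1, PYL1 and PYL2 here) form dimers without hormone, while those of subfamilies I (PYL7, PYL8 and PYL9) and II (PYL4, PYL5 and PYL6) are mostly monomers.

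The coding sequence around the gate loop is printed because it is the element all 9 share, and because it shows how far apart the genes are as templates for read assignment. Capitals mark the 15 bases that encode the gate loop, and 9 bases on each side are in lower case. Each stretch reads 5′ to 3′ on the coding strand, lies within a coding exon and was read from the RefSeq sequence and annotation of TAIR10.1.
PYR1 (AT4G17870, chr4:9929035-9929067, plus strand): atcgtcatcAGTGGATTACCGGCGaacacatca
PYL1 (AT5G46790, chr5:18984372-18984404, minus strand): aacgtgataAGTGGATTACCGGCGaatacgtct
PYL2 (AT2G26040, chr2:11095117-11095149, minus strand): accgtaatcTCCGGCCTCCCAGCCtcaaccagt
PYL4 (AT2G38310, chr2:16050560-16050592, plus strand): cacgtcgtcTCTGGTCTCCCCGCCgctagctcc
PYL5 (AT5G05440, chr5:1609701-1609733, plus strand): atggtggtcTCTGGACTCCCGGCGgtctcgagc
PYL6 (AT2G40330, chr2:16845456-16845488, minus strand): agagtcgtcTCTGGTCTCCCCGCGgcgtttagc
PYL7 (AT4G01026, chr4:447659-447691, plus strand): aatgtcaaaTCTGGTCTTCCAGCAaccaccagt
PYL8 (AT5G53160, chr5:21561550-21561582, plus strand): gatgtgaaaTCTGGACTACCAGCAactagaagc
PYL9 (AT1G01360, chr1:142529-142561, plus strand): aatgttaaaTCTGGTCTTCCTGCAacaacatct
The 9 genes used 8 different codings of this loop, and only PYR1 and PYL1 shared theirs. The latch loop began 30 codons after the gate loop began in all 9. Over whole coding sequences, identity was 53.3 to 72.2% for the 9 pairs within a subfamily and 51.8 to 58.7% for the 27 pairs between subfamilies, as a share of the longer sequence. Over the longest RefSeq transcript of each gene, untranslated parts included, the longest run of identical bases shared by any pair was 32 bases, between PYL7 and PYL9. The 6 genes of subfamilies II and III have a single exon in their longest RefSeq transcript, while PYL7, PYL8 and PYL9 have 3 exons each.

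Values below are normalised read counts per library, the deposited values rescaled so that libraries can be compared. Taking 1 step of a library's deposited values as 1 read, depth ran from 17132896 to 25377345 gene reads per library. As a check of the labels, MTA transcripts were at 72.4 ± 8.29 in WT and 51.1 ± 10.6 in mta (SD, n = 4 each), with no overlap of the genotypes (log2 fold change -0.51, SE 0.15, limma adjusted p = 0.0319). That call was lost without WT 2 (adjusted p = 0.0962), WT 3 (0.0665), WT 4 (0.0637) or mta 1 (0.0563), in a range of 0.0130 to 0.0962 over all alternatives. Counts per gene do not separate the mutant allele from the transgene. ABI3 was listed in 0 libraries. Of all 18328 genes tested by limma, 26.3% were called changed at an adjusted p of 0.05. WT 1, mta 1 and mta 4 stood apart from the other libraries of their genotype. limma's array weights, which fall as a library strays from its group, were 0.275, 0.623 and 0.214 for these 3 and 1.42 to 2.54 for the other 5.

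None of the 9 receptor genes passed the test between genotypes, with 0 higher and 0 lower in mta, beside the 26.3% of all tested genes. By limma without adjustment, 0 members had a p under 0.05. The genotypes overlapped for all 9, whereas they did not overlap for 28.3% of all tested genes. Log2 fold changes (log2(value + 1), mta minus WT) ran from -0.33 for PYL6 to 0.22 for PYL4, with 5 above and 4 below 0. The sign turned for PYL7 and PYL8 with the authors' scaling and for PYR1 with upper-quartile factors. Their median was 0.07, beside -0.01 over all tested genes, and the median size of the change regardless of sign was 0.13 beside 0.25. The standard errors were 0.12 to 0.34 with a median of 0.15, close to the 0.14 of all tested genes. A missed threshold does not show equal levels, and the 95% intervals below give the changes these libraries leave possible. In such bulk samples, fewer cells of a type and less RNA per cell cannot be told apart.

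**Figure D1:**
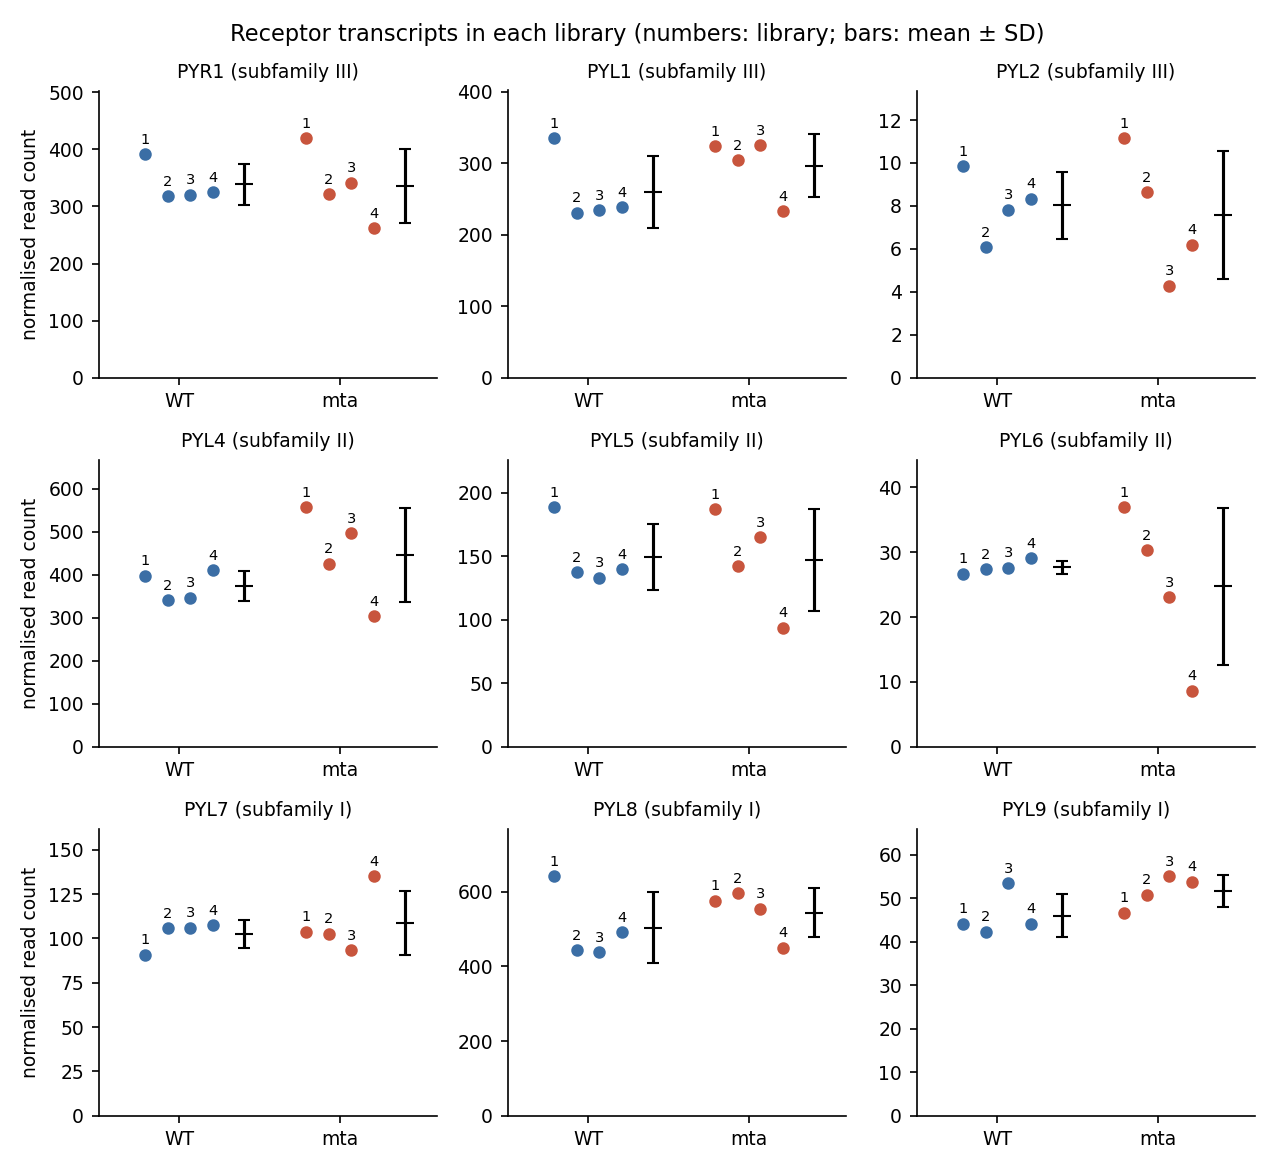
Normalised read counts of the 9 receptor genes in each library (linear axes from 0), with WT in blue, mta in red, the library number above each point, and mean ± SD as bars (n = 4). The genotypes overlap in every panel, WT 1 lies above the other WT libraries for PYR1, PYL1, PYL2, PYL5 and PYL8, and mta 4 is the lowest mta library for 6 genes and the highest for PYL7.

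Among the dimeric receptors of subfamily III, PYR1, the member through which the family was found with the synthetic agonist pyrabactin, had values of 391, 318, 321 and 325 in WT 1 to 4 and 419, 322, 341 and 262 in mta 1 to 4. The 2 highest values were those of WT 1 and mta 1, the lowest was that of mta 4, and the other 5 libraries lay between 318 and 341. The means were 339 ± 35.2 in WT and 336 ± 65.1 in mta (SD, n = 4 each), a log2 fold change of -0.03 with a 95% interval of -0.33 to 0.28 (limma adjusted p = 0.916). This interval leaves room for a fall to 0.796 of the WT level or a rise to 1.21 times it.

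PYL1, the closest relative of PYR1 here by coding identity (65.0%), stood at 335, 231, 234 and 238 in WT 1 to 4 and at 324, 304, 325 and 232 in mta 1 to 4. In mta, 3 libraries were above 3 of the WT libraries, but WT 1 was the highest of all and mta 4 sat among the lower WT values. The log2 fold change was 0.20 (95% interval -0.13 to 0.52, limma adjusted p = 0.359). PYL2, which is the least abundant of the 9, was at 9.84, 6.09, 7.82 and 8.34 in WT and at 11.1, 8.63, 4.28 and 6.19 in mta. Its deposited values correspond to 13 to 35 steps per library, so counting error alone is large. Its log2 fold change was -0.13 (95% interval -0.71 to 0.46, limma adjusted p = 0.756), and it was 0.08 without mta 3.

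In subfamily II, PYL4 had the highest positive fold change of the 9. Its values were 398, 341, 346 and 411 in WT 1 to 4 and 557, 425, 496 and 304 in mta 1 to 4. The first 3 mta libraries were above every WT library, and mta 4 was below every WT library. Means were 374 ± 35.4 in WT and 446 ± 109 in mta, with a log2 fold change of 0.22 (95% interval -0.14 to 0.59, limma adjusted p = 0.356). Without mta 4 the log2 fold change was 0.40 and PYL4 passed the test (limma adjusted p = 0.0171, in a range of 0.00540 to 0.746 over its alternatives), in a comparison where 35.9% of tested genes were called, 17.5% of them higher and 18.4% lower as shares of the genes tested.

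PYL5, another monomeric receptor, was at 188, 137, 133 and 140 in WT 1 to 4 and at 187, 142, 165 and 93.6 in mta 1 to 4. WT 1 and mta 1 were nearly level at the top and mta 4 was the lowest. The log2 fold change was -0.06 (95% interval -0.49 to 0.38, limma adjusted p = 0.862), and it was 0.14 without mta 4. PYL6, the least abundant of this subfamily, showed the widest contrast in spread. In WT it was at 26.7, 27.4, 27.6 and 29.1, a coefficient of variation of 3.65%, and in mta 1 to 4 it was 36.9, 30.4, 23.1 and 8.61, a coefficient of variation of 49.1%. With 81 to 122 steps in WT, and 1 step taken as 1 read, counting error alone is wider than the WT spread. The closeness of the WT values is therefore no sign of a steady level. The value of mta 4 corresponds to 32 steps of the deposited scale, against 70 to 122 in the other libraries. The log2 fold change was -0.33 (95% interval -1.08 to 0.43, limma adjusted p = 0.521), and without mta 4 it was 0.09.

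In subfamily I, all from genes with introns, the order of counts was PYL8, PYL7 and PYL9. PYL8, known for its part in root responses to abscisic acid, had the highest counts of the 9, at 641, 443, 439 and 491 in WT 1 to 4 and 576, 597, 555 and 450 in mta 1 to 4. WT 1 was the highest of the 8 and mta 4 was the lowest mta library, below WT 4. The log2 fold change was 0.12 (95% interval -0.18 to 0.42, limma adjusted p = 0.553). PYL9 was at 44.1, 42.3, 53.4 and 44.1 in WT and at 46.7, 50.8, 55.0 and 53.8 in mta. Every mta value was above 3 of the WT values, and WT 3 lay among the mta values. Its log2 fold change of 0.16 had the smallest standard error of the 9 at 0.12 (95% interval -0.09 to 0.42, limma adjusted p = 0.331).

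PYL7 ran against most members across libraries. It was at 90.8, 106, 106 and 108 in WT 1 to 4 and at 104, 103, 93.5 and 135 in mta 1 to 4. WT 1, the highest WT library for 5 other members, was the lowest for PYL7, and mta 4, the lowest mta library for 6 other members, was the highest. The log2 fold change was 0.07 (95% interval -0.20 to 0.35, limma adjusted p = 0.705).

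**Figure D2:**
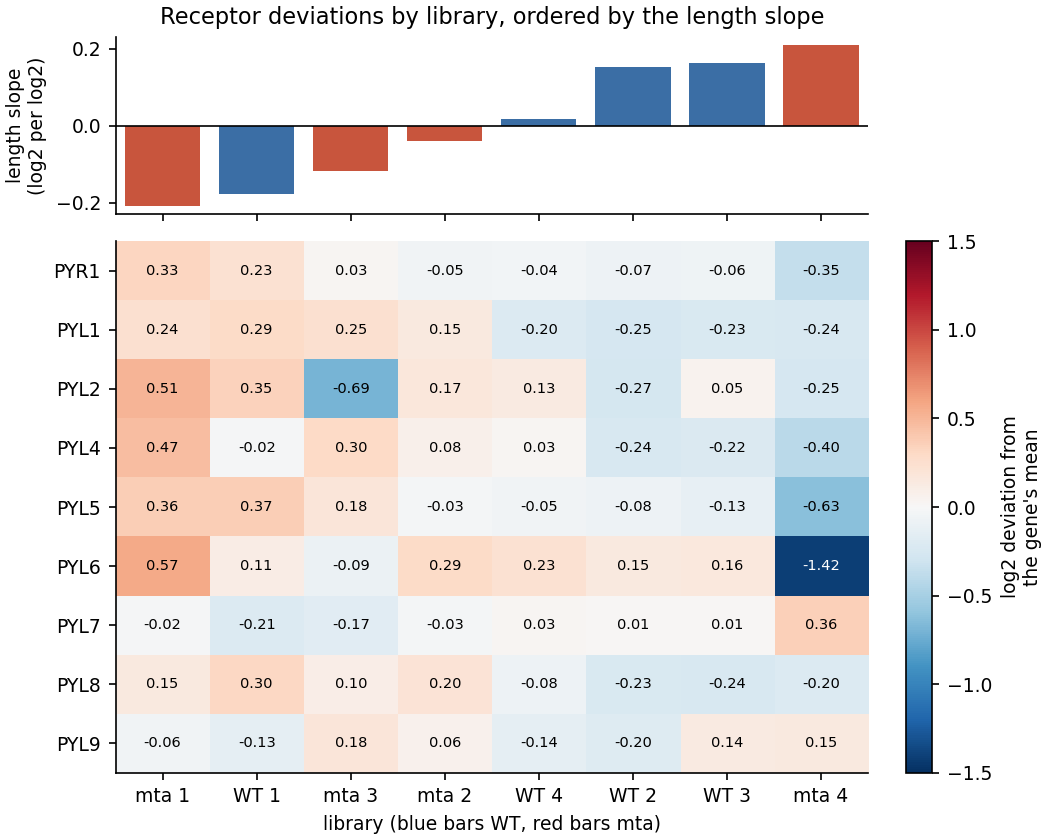
Upper panel, slope of each library's log2 deviation along log2 transcript length over all tested genes (blue WT, red mta). Lower panel, log2 deviation of each receptor gene from its own mean over the 8 libraries, with libraries in the order of that slope; PYL6 in mta 4 is the lowest entry at -1.42, and PYL7 is highest in mta 4 at 0.36.

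The libraries also differed along transcript length, and the part of this in the spread of the receptors was not tested. The slope of log2 deviation against log2 transcript length over all tested genes was -0.21 in mta 1, -0.18 in WT 1 and -0.12 in mta 3, meaning relatively more reads on short transcripts. It was -0.04 in mta 2, 0.02 in WT 4, 0.15 in WT 2, 0.16 in WT 3 and 0.21 in mta 4. The receptor transcripts are 1179 to 1748 bases long, with a median of 1378, and the median over tested genes was 1758. With each library's trend along length removed, 0 of the 9 receptors passed the test, beside 33.0% of all tested genes.

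Without WT 1, mta 1 and mta 4, a set of 3 WT and 2 mta libraries remained, and 3 receptors were called higher in mta and 0 lower. In that comparison 46.1% of all tested genes were called, 22.0% of them higher and 24.1% lower as shares of the genes tested. PYL1 had a log2 fold change of 0.44 (SE 0.07, limma adjusted p = 0.000369), with mta at 314 and 335 and WT at 236 to 242. PYL8 had a log2 fold change of 0.35 (SE 0.07, limma adjusted p = 0.00206), with mta at 571 and 615 and WT at 448 to 499.9. PYL4 had a log2 fold change of 0.35 (SE 0.09, limma adjusted p = 0.00862), with mta at 439 and 511 and WT at 349 to 418. With PYR1 these 3 are the members with the most reads, and PYR1 had a log2 fold change of 0.06 there (limma adjusted p = 0.504). With all 8 libraries kept but weighted by their array weights, the same 3 genes were called higher and 0 members lower, beside 52.7% of all tested genes, 25.1% higher and 27.6% lower. PYL1 had a log2 fold change of 0.40 (limma adjusted p = 0.00111) in that fit, PYL4 0.38 (0.00540) and PYL8 0.30 (0.00654). The choice of these libraries rests on earlier results of these data, and 2 libraries in mta give a thin estimate of its spread. WT 1 was the highest of all libraries for PYL1 and PYL8 and mta 4 the lowest for PYL4, so leaving these out favours calls of higher. The array weights are lowest for the same 3 libraries, so the weighted fit is not a separate support for these calls.

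**Figure D3:**
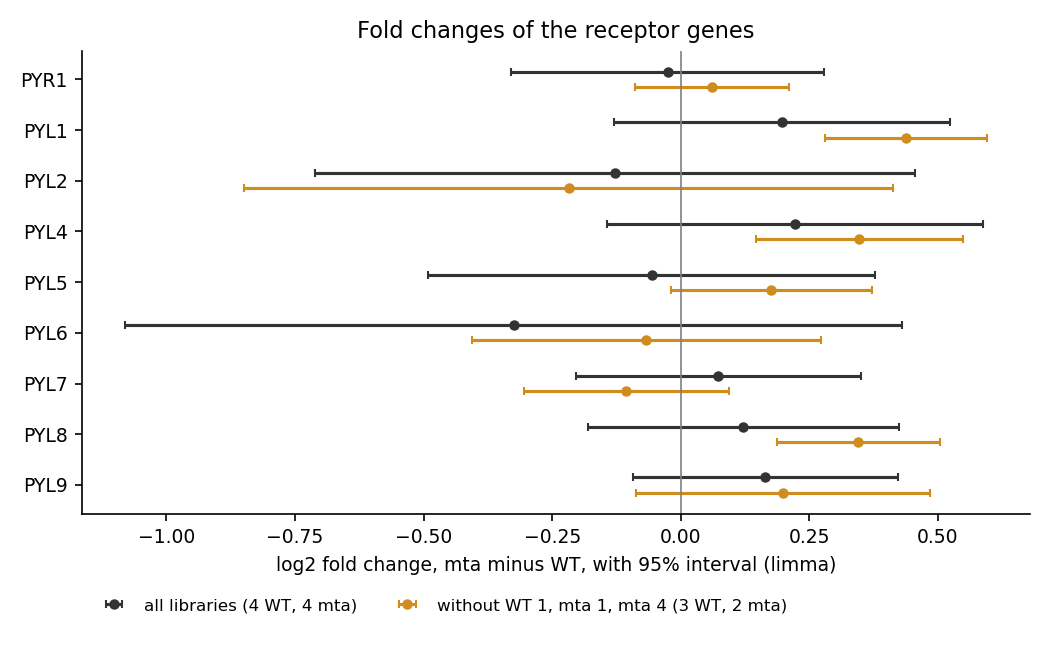
Log2 fold changes (mta minus WT) of the 9 receptor genes with 95% intervals from limma, with all 8 libraries (dark) and without WT 1, mta 1 and mta 4 (orange). With all libraries every interval includes 0; without the 3 libraries the intervals of PYL1, PYL4 and PYL8 lie above 0.

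Levels were compared between genes per kilobase of transcript, using the longest RefSeq transcript of each. In WT the order was PYL8 (288 ± 54.3 normalised reads per kb), PYR1 (263 ± 27.3), PYL4 (259.8 ± 24.6), PYL1 (188 ± 36.5), PYL5 (97.1 ± 16.9), PYL7 (82.7 ± 6.34), PYL9 (39.0 ± 4.27), PYL6 (17.2 ± 0.630) and PYL2 (6.24 ± 1.21), each as mean ± SD with n = 4. The highest level was 46.2 times the lowest. Each subfamily thus had a member among the top 3 and members far below, and PYL8 stood at the 88.5th percentile of tested genes and PYL2 at the 12.5th. The ranges of PYL8, PYR1 and PYL4 overlapped as neighbours, as did those of PYL4 and PYL1 and of PYL5 and PYL7. The ranges did not overlap between PYL1 and PYL5, PYL7 and PYL9, PYL9 and PYL6, or PYL6 and PYL2.

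In mta the order per kilobase was the same except that PYL4 (309.6 ± 75.4) came before PYR1 (261 ± 50.5), behind PYL8 (312 ± 37.2). PYL4 was above PYR1 in 4 of 4 mta libraries, whereas PYR1 was above PYL4 in 3 of 4 WT libraries. PYL4 and PYL8 did not differ beyond their spread in mta, with PYL8 higher in 2 of 4 libraries. With coding length in place of transcript length, PYL4 and PYR1 also changed places in WT.

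**Figure D4:**
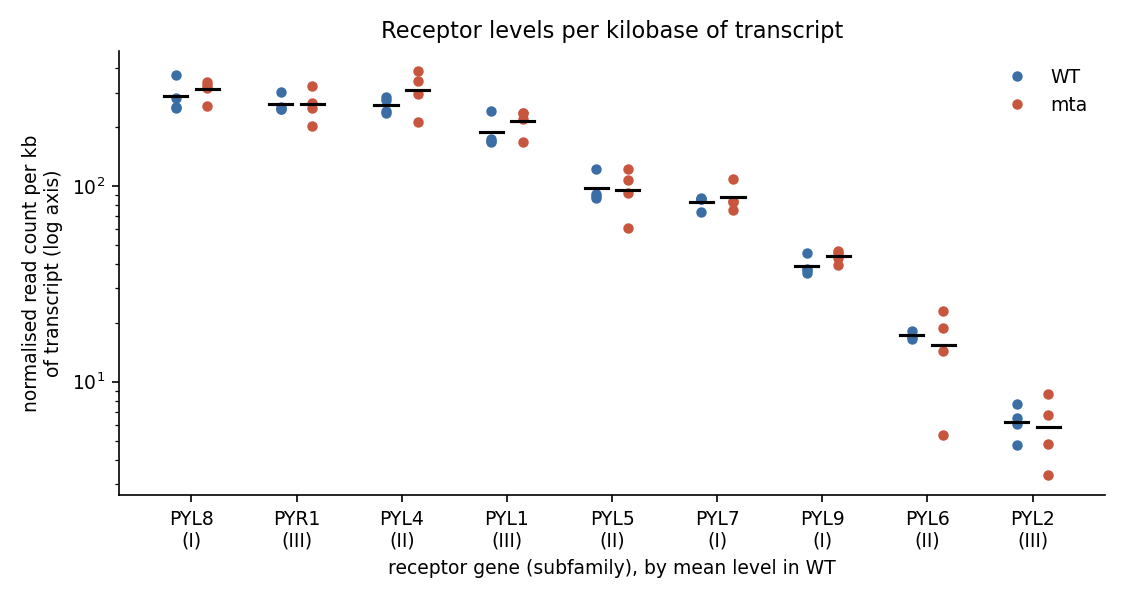
Normalised read count per kilobase of transcript (log axis) of each receptor gene in the 4 WT (blue) and 4 mta (red) libraries, with short black lines at the means and genes ordered by their WT mean. The 9 genes span from 6.24 (PYL2) to 288 (PYL8) in WT, with all 3 subfamilies represented near the top.

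Each of the 3 subfamilies took between 30.2 and 36.8% of the summed receptor level per kilobase of transcript in WT. These shares depend on the length used. Per kilobase of coding sequence the WT means were 888 for PYL8, 161 for PYL7 and 81.5 for PYL9 in subfamily I. They were 599 for PYL4, 244 for PYL5 and 42.7 for PYL6 in subfamily II. In subfamily III they were 588 for PYR1, 389 for PYL1 and 14.0 for PYL2. By these means subfamily I, and not III, had the largest sum, and percentages on that scale were not computed. Per kilobase of transcript in WT, subfamily I held 33.0 ± 0.118%, subfamily II 30.2 ± 1.38% and subfamily III 36.8 ± 1.33% (SD, n = 4). In mta the shares were 33.4 ± 4.16%, 30.8 ± 3.65% and 35.8 ± 0.623%. The share of subfamily I was 32.9 to 33.2% in the 4 WT libraries and 29.2, 34.6, 31.2 and 38.7% in mta 1 to 4. The mean hardly differed while the libraries of mta spread on both sides of WT, with mta 1 and mta 4 at the extremes. With 1 step taken as 1 read, counting error alone is wider than the WT spread of this share. Its closeness in WT is therefore no sign of a steady share. Shares of a sum over chosen genes carry no test here.

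The other 5 genes of the family had almost no reads in these leaves. PYL11, PYL12 and PYL13 were listed in 0 of 8 libraries, which puts each below a deposited value of 1. PYL10 was listed in mta 2 alone, at 1.04, and PYL3, the remaining member of subfamily III, in mta 1 and mta 2 at 1.23 and 1.55. None of these reached the minimum for testing.

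The rest of the abscisic acid pathway gave calls that the receptors did not. Of 79 pathway genes chosen by name, 71 were tested, and 9 rose and 18 fell, which is 38% beside 26.3% of all tested genes (13.4% higher and 12.9% lower). The counts of single lists are small, and several moved with 1 library. The receptors' direct partners, the clade A phosphatases, had 1 of 7 tested members lower and 0 higher, with a median log2 fold change of -0.17. That is 14.3% beside the 12.9% of all tested genes that were lower. The count of lower members was 0 without WT 2, WT 4 or mta 3 and 2 without mta 4, and 1 member was called higher without WT 1 or without mta 4. ABI2 fell from 95.4 ± 5.62 to 72.7 ± 8.57 (log2 fold change -0.39, limma adjusted p = 0.0247). Its call was lost without WT 2 (adjusted p = 0.0558), WT 4 (0.0711) or mta 3 (0.0542), and its log2 fold change was -0.22 (0.0840) with WT 1, mta 1 and mta 4 all left out, in a range of 0.00843 to 0.0840 over its alternatives. The summed receptor level per kilobase was 1.40 ± 0.0709 times the summed level of these 7 phosphatases in WT and 1.62 ± 0.226 times in mta. The ranges of that ratio, 1.34 to 1.49 in WT and 1.32 to 1.86 in mta, overlapped.

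Downstream of the phosphatases, 1 of 4 tested SnRK2 kinase genes (25%, beside 12.9% of all tested genes lower) fell and 0 rose. It was SNRK2.3, which acts with its close relative SNRK2.2 and with OST1 in most abscisic acid responses, from 278 ± 14.7 to 206 ± 13.1 (log2 fold change -0.43, limma adjusted p = 0.00521). Of 6 bZIP factor genes 1 fell, ABF4, from 226 ± 11.1 to 162 ± 25.7 (log2 fold change -0.49, limma adjusted p = 0.0103), and 0 rose. Median log2 fold changes were -0.22 for the kinases and -0.19 for the factors. The kinase count of lower members was 2 when mta 1 or mta 4 was left out, and 3 when both of these and WT 1 were. The factor count, 16.7% of its list beside 12.9% of all tested genes lower, was 2 without WT 1, 3 without mta 4 and 3 without those 3 libraries.

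Among guard cell outputs 1 of 9 was higher and 2 were lower, with a median of -0.02. The 33.3% called stands beside 26.3% of all tested genes (13.4% higher and 12.9% lower). There were 2 higher without WT 2 or mta 1, and 1 lower without WT 2, WT 3, mta 2 or mta 3. RBOHF, an NADPH oxidase that makes reactive oxygen in guard cell signalling, rose from 89.8 ± 19.1 to 200.5 ± 55.6 (log2 fold change 1.14, limma adjusted p = 0.00219). RBOHD, the related oxidase of leaf defence and wounding, fell from 1270.1 ± 126 to 746 ± 76.6 (log2 fold change -0.77, limma adjusted p = 0.000563). ALMT12, an anion channel gene, fell from 26.9 ± 3.56 to 18.8 ± 2.1 (limma adjusted p = 0.0308), a call lost without WT 2 (adjusted p = 0.0922), WT 3 (0.0852), mta 1 (0.0530), mta 2 (0.0899) or mta 3 (0.0708), in a range of 0.00272 to 0.0922 over its alternatives.

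Among 11 tested genes of receptor turnover and membrane docking, 3 fell and 0 rose, with a median of -0.23. The 27.3% called, all of them lower, stands beside 12.9% of all tested genes lower (26.3% called in either direction). The count of lower members ran from 2 to 5 when single libraries were left out, with 5 without WT 1. PUB22 and PUB23 encode related U-box ubiquitin ligases, for which PYL9 is a reported target. PUB23 fell from 510.6 ± 54.5 to 279 ± 21.9 (log2 fold change -0.87, limma adjusted p = 0.000169) and PUB22 from 40.9 ± 3.80 to 26.4 ± 3.77 (log2 fold change -0.62, limma adjusted p = 0.00775). VPS23A, named ELC in RefSeq and part of the sorting complex that sends membrane cargo to the vacuole, passed with all libraries at a log2 fold change of -0.31 (limma adjusted p = 0.0409). That call was lost without WT 2 (adjusted p = 0.0862), WT 3 (0.106), WT 4 (0.0975), mta 2 (0.0821) or mta 3 (0.0807), in a range of 0.00290 to 0.106 over its alternatives.

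Genes that set the amount of the ligand moved in both directions. Of 17 tested genes of abscisic acid synthesis, breakdown and transport, 6 rose and 4 fell, with a median of 0.13. That is 58.8% called, beside 26.3% of all tested genes (13.4% higher and 12.9% lower). The count of higher genes ran from 3 to 6 when single libraries were left out, with 3 without mta 2 or without mta 3. Of the 6, ABA4 (log2 fold change 0.39) lost its call in 10 of 20 alternatives, NPF4.6 (0.25) in 9 and ABCG25 (0.40) in 3. Among breakdown enzymes, the 8'-hydroxylase gene CYP707A3 fell from 623 ± 106 to 179.7 ± 19.5 (log2 fold change -1.78, limma adjusted p = 1.08e-05), while its relative CYP707A2 rose from 13.9 ± 3.05 to 47.1 ± 6.69 (log2 fold change 1.70, limma adjusted p = 6.61e-05). Among transporters, the importer gene ABCG40 rose from 107 ± 27.7 to 381 ± 67.5 (log2 fold change 1.84, limma adjusted p = 5.79e-05) and the efflux carrier gene DTX50 fell from 407 ± 12.1 to 195 ± 16.7 (log2 fold change -1.06, limma adjusted p = 2.16e-05).

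Of 17 genes known to respond to abscisic acid, 6 fell and 2 rose, with a median of -0.20. That is 47.1% called, beside 26.3% of all tested genes (13.4% higher and 12.9% lower). The count of higher genes was 4 without WT 1, mta 1 and mta 4. The count of lower genes ran from 5 to 6 when single libraries were left out. Of the 6, RD29A (log2 fold change -0.71) lost its call in 7 of 20 alternatives and TSPO (-0.95) in 2 of 19. The dehydrin genes LTI30 and ERD10 fell from 313 ± 11.4 to 180.2 ± 3.71 and from 5560 ± 231 to 3803 ± 124 (log2 fold changes -0.79 and -0.55, limma adjusted p = 6.56e-05 and 0.00117). LEA4-5, another protective protein gene of dry tissue, fell from 53.6 ± 14.1 to 13.9 ± 2.59 (log2 fold change -1.86, limma adjusted p = 6.95e-05). RD29B, a target with bZIP binding elements, rose from 8.26 ± 0.758 to 25.2 ± 10.4 (log2 fold change 1.42, limma adjusted p = 0.00199).

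**Figure D5:**
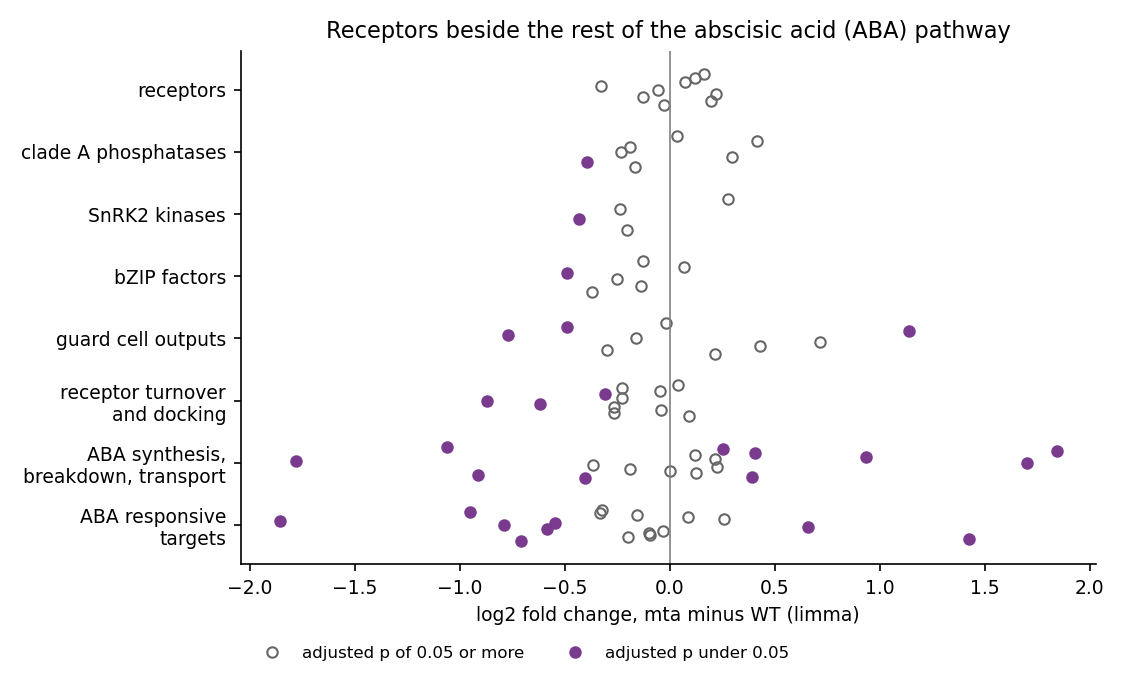
Log2 fold changes (mta minus WT) of the 9 receptor genes and of the tested members of 7 pathway lists, one point per gene, filled where the limma adjusted p was under 0.05. The receptors lie between -0.33 and 0.22 with no filled point, while the genes of abscisic acid synthesis, breakdown and transport run from -1.78 to 1.84.

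Markers of leaf cell types and of leaf age were measured beside these genes, and their part in the results was not tested. None of the mesophyll, epidermis, guard cell and vasculature markers was at 0 in any library, and several changed between genotypes, beside 13.4% of all tested genes higher and 12.9% lower. Of 6 vasculature markers 3 were higher and 1 lower (median log2 fold change 0.30), and their summed normalised counts of 1594 to 1822 in WT and 2070.5 to 2558 in mta did not overlap. The phloem sugar exporter gene SWEET11 rose from 396 to 708 (log2 fold change 0.84, limma adjusted p = 0.000555), and ATHB8, a gene of early vein cells, fell from 97.1 to 67.1 (-0.52, adjusted p = 0.00900).

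Of 6 guard cell markers 2 were higher and 0 lower (median log2 fold change 0.32). FAMA, a factor of the last step of guard cell formation, rose from 104 to 145 (log2 fold change 0.48, limma adjusted p = 0.0131), and the guard cell factor gene MYB60 rose from 85.4 to 124 (0.52, adjusted p = 0.0400). The summed counts of this list, 2818 to 3177 in WT and 3069 to 3492 in mta, consist mostly of the proton pump gene OST2, at 2795 in WT and 2919 in mta (limma adjusted p = 0.624).

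Of 5 epidermis markers 2 were higher and 0 lower (median 0.05, sums of 2990 to 3124 in WT and 2953 to 3859 in mta). CER1, a gene of wax synthesis, rose from 365 to 1057 (log2 fold change 1.52, limma adjusted p = 1.57e-05), and PDF1 rose from 12.6 to 28.9 (1.24, adjusted p = 0.00930). Of 5 mesophyll markers 1 was higher and 0 lower (median 0.41, sums of 311462 to 410307 in WT and 404957 to 661084 in mta), and it was the Rubisco small subunit gene RBCS1A (log2 fold change 0.87, limma adjusted p = 0.0116).

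Markers of senescing leaves went in both directions, with 1 of 5 higher and 2 lower and a median log2 fold change of -0.32. SAG12, a protease gene of late senescence, fell from 67.3 to 7.24 (log2 fold change -3.11, limma adjusted p = 7.59e-06), and the sugar transporter gene SAG29 fell from 186 to 10.98 (-3.99, adjusted p = 2.48e-07). SAG13 rose from 1359 to 2892 (1.07, adjusted p = 0.000198) and makes up most of the list's summed counts, which were 1870 to 2041 in WT and 2572 to 3668 in mta. The marker genes with values were chosen after their values were seen.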

How the data were processed

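The 8 files hold a normalised signal per gene, deposited by the authors as read counts scaled by 1 factor in each library; rows under 1 are not listed. Per the submitters' processing notes, STAR 2.4.0, HTSeq and DESeq2 were used on TAIR10, and order and settings are not given in the sources used here. All listed values (100%) were whole multiples of 1 step per library within 0.02 of a step, but the lowest were 3 or 4 steps, so no count model was run. Rows without a gene (no feature 4.92 to 5.97%, ambiguous 0.359 to 0.406%, not unique 6.06 to 9.07% of a library's total) were left out.

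Unlisted genes were set to 0. A gene was kept where 4 or more libraries reached a value of 3, which left 18328 of 20690. Values were divided by trimmed mean of M values factors (trims 0.3 and 0.05; divisors 0.881 to 1.09). limma 3.58.1 in R 4.3.3 was fitted to log2(value + 1) with its trend option and no term besides genotype; Benjamini-Hochberg adjustment ran over all tested genes. Fold changes on this scale understate those of low genes. The fit was tested on simulated data with the same spread for all genes and no outlying library or length trend, unlike these data. It found 59.7% of planted changes of 1.5-fold and 97% of those of 2-fold, which need not hold here.

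Members, lists and alternatives were chosen with earlier results of these data known. By rule the text names all members, MTA, ABI3 and up to 4 called genes of each pathway list with the smallest adjusted p. Other called pathway genes could be named with their fold change. Gene models came from RefSeq TAIR10.1, which is not the build in the notes, and matched 20582 of 20690 identifiers; all coordinates are of TAIR10.1. Per the labels the libraries are strand-specific. Figures were drawn with matplotlib 3.10.9. WT 2 and WT 3 were the closest pair of libraries. Their chi-square per degree of freedom was 1.76, against 5.43 to 63.9 for the other pairs of a genotype. With a step taken as a read, they still differed beyond sampling noise. That cannot show whether they came from separate plants, because preparations from the same RNA can also differ beyond sampling noise. Both were kept as separate libraries, and their average was run as an alternative.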

Additional observations from a re-analysis of the deposited data

Results flagged for a closer look

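A library far from the other 3 of its group was found in 7 of 60 groups examined (members, named pathway genes, MTA and subfamily shares in each genotype), by the gap to its nearest neighbour as a part of the group's range and past Dixon's 95% critical value for 4 samples. Chance gives about 1 in 20 groups. WT 1 was the library that stood out in 6 of the 7, with no test of why. It was high for PYR1 (391 against 318 to 325, ratio 0.907), PYL1 (335 against 231 to 238, ratio 0.928), PYL5 (188 against 133 to 140, ratio 0.877) and PUB23 (592 against 476 to 488, ratio 0.897). WT 1 was low for PYL7 (90.8 against 106 to 108, ratio 0.900) and RBOHD (1083 against 1323 to 1349, ratio 0.902). For PYL9, WT 3 was high (53.4 against 42.3 to 44.1, ratio 0.833).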

How the results depend on the processing

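Receptor genes called higher in mta numbered 0 with all libraries, 3 with array weights (where 9663 of all genes were called), 0 to 1 when single libraries were left out, and 3 without WT 1, mta 1 and mta 4 (8388 of all genes called); 0 were called lower in all 20 alternatives. Over all genes, leaving out single libraries gave 3194 to 6513 calls against 4818. Pathway genes called numbered 27, and 41 with array weights. For MTA the log2 fold change was -0.46 with upper-quartile factors (limma adjusted p = 0.0501), -0.60 to -0.43 without single libraries, -0.28 without the 3 libraries and -0.48 with WT 2 and WT 3 averaged (adjusted p = 0.0669 and 0.0751 for the last 2). The subfamily shares moved by less than 1 SD in their 12 alternatives, which did not include coding length. That was largely fixed in advance, as a library's scaling factor cancels in a share. Leaving out 1 library cannot move the mean of a group that far either. These alternatives therefore do not show how steady the shares are. With coding length 2 members changed rank. With the authors' scaling the median of all genes moved from -0.01 to -0.16, and PYL7 (-0.073) and PYL8 (-0.026) changed sign. Other changes of sign follow. PYR1 was at 0.026 with upper-quartile factors, 0.072 with array weights, 0.060 without the 3 libraries and -0.16 to 0.089 without single libraries. PYL5 was at 0.17 with array weights, 0.18 without the 3 libraries and -0.21 to 0.14 without single libraries. PYL7 was at -0.087, -0.11 and -0.033 to 0.14 in the same order. Without single libraries PYL2 ran from -0.34 to 0.083 and PYL6 from -0.59 to 0.094. Of the 27 called pathway genes 8 lost their call in at least 1 alternative and 0 changed sign. With the replicate block 0 receptors and 4503 of all genes were called, and ABI2, ALMT12, VPS23A and NPF4.6 lost their calls (adjusted p of 0.0520, 0.0681, 0.0603 and 0.0700). Deviations of same-numbered libraries correlated at 0.47, 0.08, -0.20 and -0.35 across genes. WT 1 was closest to mta 1, while WT 2, WT 3 and WT 4 were closest to mta libraries of another number. Library effects such as the length slopes enter these values, so they cannot show whether the replicate numbers pair the samples. The planned count models were not run, as the deposited values are scaled counts without the rows under 1. Depth limits PYL2 and PYL6 most, at 13 to 35 and 32 to 122 steps per library.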

Other observations

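Genes whose pattern over the 8 libraries was most like that of 4 members were listed by Pearson's r of log2 values among 17503 genes with a mean of at least 5, as a description in which all points share library effects. For PYL4 they were PSI-P (0.993), ENODL19 (0.993) and AT1G78020 (0.989). For PYL1 they were GRP-3 (0.986), AT1G05140 (0.977) and AT1G73885 (0.975). For PYL8 they were MEE9 (0.979), GDU4 (0.973) and AT1G33780 (0.970). For PYL9 they were AT3G52900 (0.940), EB1B (0.920) and AT3G47675 (0.903).

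The core of the abscisic acid response element, ACGTG on either strand, was counted in the 250 bases before and 50 bases after each gene's start in RefSeq TAIR10.1. It was found for PYR1 (1 match), PYL1 (1) and PYL7 (3), where a CACGTG site counts on both strands. That is 3 of 9 members (33.3%), beside 27.9% of tested genes. A match is a description of the letters and not of a bound site.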
